A study of Homo sapiens with 16 samples.

Results

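The interleukin-1 (IL1) gene cluster on human chromosome 2 was followed through 16 lists of ATAC-seq peaks. The cluster was taken as chr2:113480000-113900000 (hg19), a stretch of 420001 bases that holds IL1A at 113531492 to 113542971, IL1B at 113587337 to 113594356 and IL1RN at 113875470 to 113891593. The other 6 genes of the cluster, IL37, IL36G, IL36A, IL36B, IL36RN and IL1F10, follow each other in that order between IL1B and IL1RN in the RefSeq gene table. That table is of build GRCh38.p14, so these 6 genes were not placed in hg19 here. Every listed peak that overlapped the interval was a member, by position alone. Overlapping peaks were merged within each read layout, which gave 42 regions of 153040 in all for the paired-end libraries and 26 of 103322 for the single-end libraries.

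In ATAC-seq a transposase cuts and tags accessible DNA, so a peak marks open chromatin. The cells were IMR-90 ER:Ras, a human lung fibroblast line that carries oncogenic Ras as a fusion with the oestrogen receptor, so that 4-hydroxytamoxifen (4-OHT) switches Ras on. All libraries came from this 1 line, all were transfected with siRNA, and no label says that replicates were separate cultures, so the spread between them may be technical. The paired-end libraries were proliferating cells (Pro, control siRNA, no 4-OHT, n = 2), senescent cells (Sen, control siRNA, 100 nM 4-OHT for 6 days, n = 4), and senescent cells with siRNA against FOXF1/2 (n = 2) or against JUN-family members (n = 2). The single-end libraries were Sen (n = 2) and senescent cells with siRNA against p300/CBP (n = 2) or p65 (n = 2). Every knockdown group received the same 4-OHT treatment as Sen. GEO's cell type field calls Pro senescent, too, and the title and the missing 4-OHT are what sets this group apart. For the JUN-family libraries the title reads cJUN/JUND, whereas the treatment field adds JUNB. How far each siRNA lowered its target cannot be read from peak lists.

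IL1A and IL1B encode the agonists IL-1 alpha and IL-1 beta, which bind the type 1 IL-1 receptor and signal through MYD88 to NF-kB, and cell-surface IL-1 alpha is known as an upstream inducer of the cytokine secretion of senescent fibroblasts. IL1RN encodes the receptor antagonist, which occupies the same receptor without signalling. IL36A, IL36B and IL36G encode agonists of a related receptor, IL36RN its antagonist, and IL37 and IL1F10 encode cytokines with mainly dampening activity. AP-1 is the dimeric factor that JUN proteins form, p65 (RELA) is a subunit of NF-kB, p300 and CBP are histone acetyltransferases, and FOXF1 and FOXF2 are forkhead factors of lung mesenchyme.

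Promoter sequences of the genes with a listed peak near the start are shown because 3 of the knockdowns were directed at factors that bind short DNA words. RefSeq (GRCh38.p14) gave 14 promoter windows for 8 of the 9 genes, IL36B having no entry, and the 250 bases before the start of 4 of them are printed 5′ to 3′ on the gene's strand. Capitals mark matches, on either strand, to TGANTCA for AP-1, a stricter kappa-B word for NF-kB and TTGCNNAA for C/EBP. They also mark TGTTTAC and TGTTTAT for forkhead factors and TATAAA for the TATA box, where TGTTTAT and TATAAA matches can overlap. A looser NF-kB word, with more letters left free, was searched, too. Its matches are in lower case unless they also match the stricter word. The windows lie at chr2:112784401-112784650 (minus strand, second of 2 IL1A starts), chr2:112836780-112837029 (minus strand, IL1B), chr2:113117721-113117970 (plus strand, first of 3 IL1RN starts) and chr2:113127348-113127597 (plus strand, last of the IL1RN starts).
IL1A: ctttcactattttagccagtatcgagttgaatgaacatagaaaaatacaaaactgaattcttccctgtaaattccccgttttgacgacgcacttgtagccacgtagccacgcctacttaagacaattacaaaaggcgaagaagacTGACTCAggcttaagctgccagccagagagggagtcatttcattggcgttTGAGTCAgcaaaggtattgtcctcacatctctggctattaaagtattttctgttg
IL1B: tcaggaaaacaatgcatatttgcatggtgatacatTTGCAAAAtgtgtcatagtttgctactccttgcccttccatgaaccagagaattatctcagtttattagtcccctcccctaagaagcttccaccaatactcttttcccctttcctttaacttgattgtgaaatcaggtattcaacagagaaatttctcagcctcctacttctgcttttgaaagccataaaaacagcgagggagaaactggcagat
IL1RN, first start: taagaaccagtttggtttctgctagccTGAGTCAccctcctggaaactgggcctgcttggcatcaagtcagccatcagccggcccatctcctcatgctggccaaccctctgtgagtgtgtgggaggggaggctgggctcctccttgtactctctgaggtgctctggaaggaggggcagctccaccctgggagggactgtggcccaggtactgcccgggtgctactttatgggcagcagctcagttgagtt
IL1RN, last start: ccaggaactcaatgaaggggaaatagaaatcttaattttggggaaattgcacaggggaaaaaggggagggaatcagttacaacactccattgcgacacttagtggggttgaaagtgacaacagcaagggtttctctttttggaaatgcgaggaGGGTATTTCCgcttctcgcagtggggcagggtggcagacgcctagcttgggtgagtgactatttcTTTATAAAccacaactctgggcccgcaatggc

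The AP-1 word stood at -105 and -55 from the second IL1A start and at -223 from the first IL1RN start, and 7.709% of all 35116 windows, each running to 50 bases past the start, held it. IL1B carried the C/EBP word at -215, which 10.46% of all windows held, and no AP-1 word. The stricter NF-kB word lay at -97 from the last IL1RN start, and 1.911% of all windows held it. The looser NF-kB word was in 9 of the 14 windows of the cluster and in 58.67% of all windows. In the printed sequences it stood at -117, -78 and -45 from the first IL1RN start, besides the match at -97. TGTTTAC, in 3.423% of all windows, was in 0 of the 14 windows of the cluster, and TGTTTAT, in 4.237%, was in 1 window of IL37 and 1 of IL1F10. These matches describe the letters only, and the hg19 bases under the peaks themselves were not used here.

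Values at a region are given as the summit pileup (the fragments or reads stacked at the highest point of a peak) over the genome-wide background coverage of the same library, both recovered from the deposited fold and p-value of each peak. Paired-end libraries had a background coverage of 1.74 to 3.08 and single-end libraries one of 0.195 to 0.475. To be listed, a paired-end peak needed at least 4.58 to 6.31 times the background, depending on the library, a single-end peak 14.7 to 25.7 times, and more where the local background is raised. A region without a peak is therefore one below that floor, not one known to be closed. The Pro lists (65281 and 66302 peaks) and the JUN-family lists (62734 and 60156) were shorter than the Sen lists (98705 to 102958), and sip65 replicate 2 was the shortest of all (17880), so counts are also given for lists cut to equal length. Pro, Sen replicates 1 and 2 and siFOXF1/2 carry one style of peak name, and Sen replicates 3 and 4 and the JUN-family libraries another, so counts within each style stand beside the pooled ones. In such bulk samples, fewer cells with a region open and a weaker opening in each cell cannot be told apart.

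**Figure D1:**
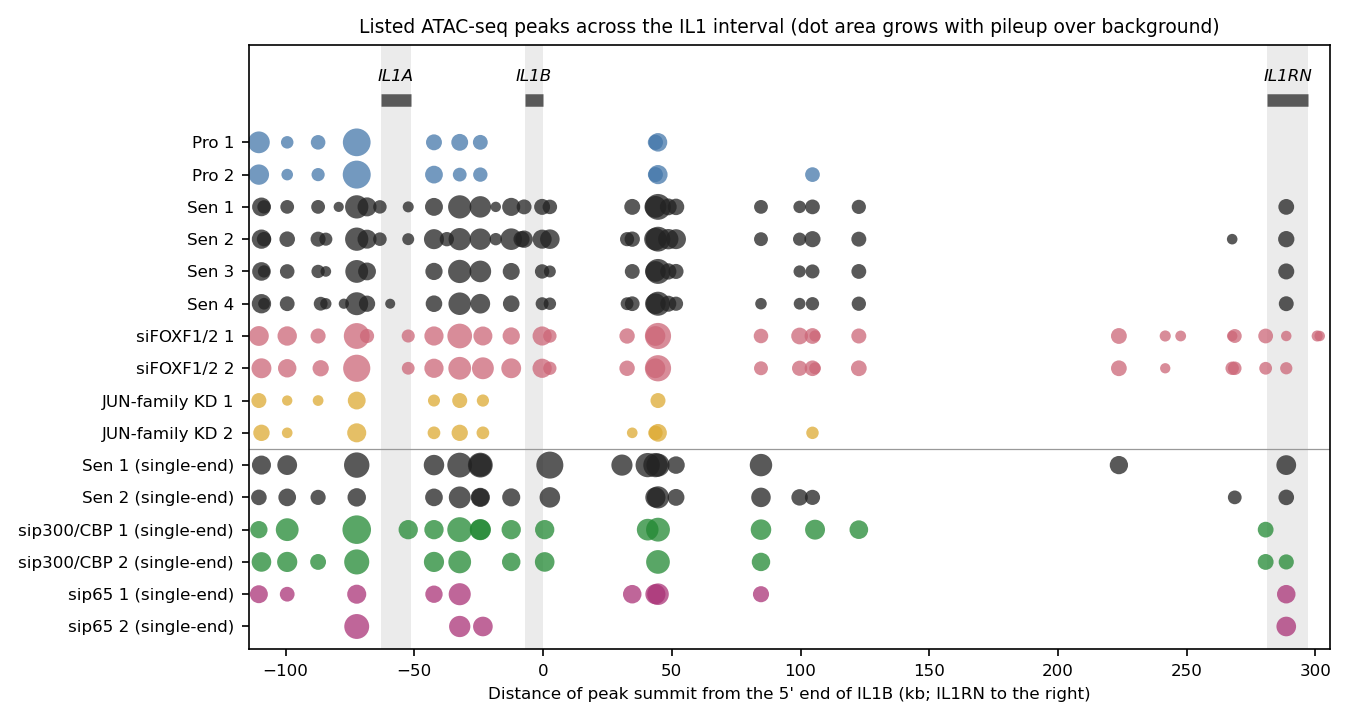
Each dot is a listed peak, placed by the distance of its summit from the 5′ end of IL1B (x axis, kb, IL1RN to the right) in each of the 16 libraries (rows), with dot area growing with summit pileup over background; grey bands mark IL1A, IL1B and IL1RN. Peaks crowd on the IL1A and IL1B side, a stretch of 101.0 kb before the IL1RN side is empty in every paired-end library, and among the paired-end rows those of siFOXF1/2 hold the most dots to the right of it.

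Open regions were unevenly spread along the cluster. Of the 42 paired-end regions, 21 lay before, in or between IL1A and IL1B, 18 lay between IL1B and IL1RN, 1 inside IL1RN and 2 beyond it. No paired-end library held a peak from 113716948 to 113817931, a gap of 101.0 kb between IL1B and IL1RN, and the single-end libraries shared a gap of 101.4 kb at nearly the same place. Regions were 142 to 1571 bases long (median 567). Peaks were found in all 10 paired-end libraries at 7 regions and in a single library at 8. In the single-end layout, 24 of the 26 regions overlapped a paired-end region, 2 were held by all 6 libraries and 7 by a single library.

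The first comparison asked what entry into senescence changed in the cluster. More of the cluster was open in senescent cells, where peaks appeared upstream of IL1B and inside IL1RN that the Pro lists lacked. The interval held 10 and 11 peaks in the Pro libraries and 27, 32, 22 and 28 in the Sen libraries. The means were 10.5 ± 0.707 (SD, n = 2) and 27.2 ± 4.11 (SD, n = 4), a ratio of 2.60, and the groups did not overlap. Peaks covered 3484 and 3740 bases of the interval in Pro and 10548 to 17267 bases in Sen, a ratio of 3.88. Per 10000 listed peaks, which takes the longer Sen lists into account, the interval held 1.60 ± 0.0900 (SD, n = 2) peaks in Pro and 2.69 ± 0.362 (SD, n = 4) in Sen, a ratio of 1.68. Each of these differences gave p = 0.133 in a two-sided exact permutation test, the smallest p that 2 libraries against 4 allow.

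**Figure D2:**
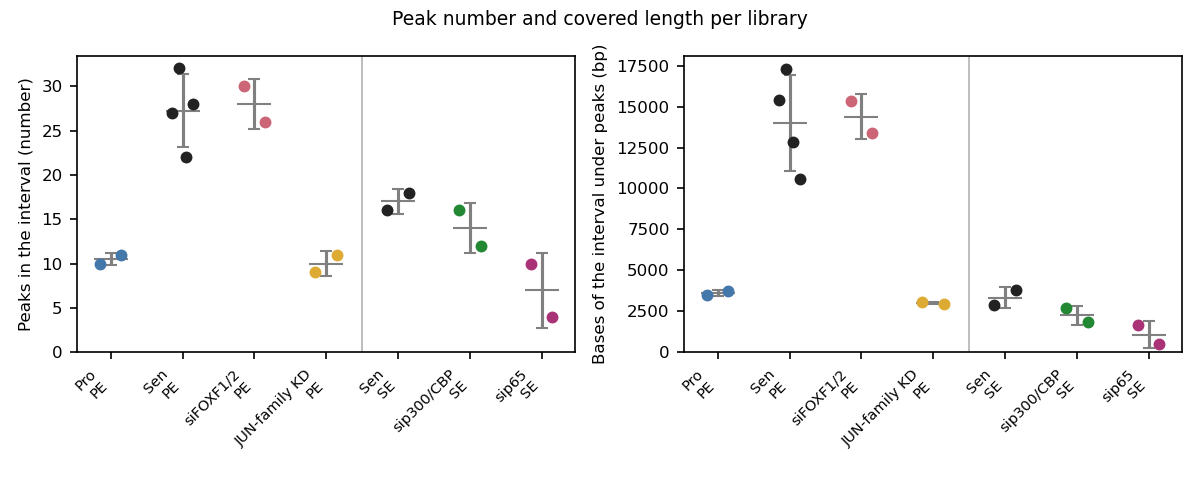
Left, the number of listed peaks in the interval; right, the bases of the interval under peaks, for each library (points), with the group mean and SD (horizontal line and bars); PE and SE are the paired-end and single-end layouts, split by the vertical line. Sen paired-end libraries hold 22 to 32 peaks, siFOXF1/2 26 and 30, and Pro and JUN-family knockdown 9 to 11.

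Of the 21 regions with a peak in all 4 Sen libraries, 11 had none in either Pro library and are called opened (52.4%), where 26.1% of all such regions of the genome were opened. None of the 9 regions held by both Pro libraries was closed in Sen, against 3.96% of all such regions. With all lists cut to the 65281 strongest peaks, 6 of 16 regions were opened (37.5%) against 14.9% of all. With Sen replicates 1 and 2 alone 16 of 26 were opened (33.4% of all), and with replicates 3 and 4 alone 12 of 22 (30.6% of all).

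At IL1B itself, a region at chr2:113594160-113594863 spanned the 5′ end of the gene, with its summit 138 bases upstream. Its pileup was 31.3, 48.0, 23.9 and 17.9 times the background in Sen replicates 1 to 4, and no Pro library listed a peak there. The Sen libraries were spread widely at this region, replicate 2 highest and replicate 4 lowest, and the lowest stood at least 2.84-fold above the genome-wide Pro floor. Against a floor set at the highest local background seen at the region, 9.20 times genome-wide in Sen replicate 2, the bound fell to 0.822. The local background of Pro is not known where Pro lists no peak. The region was also not among the 6 opened with lists of equal length, so a difference at the IL1B start was not resolved here. A second opened region lay 2850 bases upstream of the IL1B start (chr2:113596936-113597498), at 24.5, 50.8, 14.1 and 16.0 times the background in Sen, with the same limit (bounds of 2.23 and 0.817). Another lay between IL1A and IL1B, past the 3′ end of IL1B and 12.3 kb downstream of its 5′ end (chr2:113581848-113582541). It had 42.4, 63.6, 36.3 and 34.3 in Sen, at least 1.46-fold over the local Pro floor.

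Further upstream of IL1B 3 more regions opened close together. They lay 34.3, 48.9 and 51.4 kb from the IL1B start, at chr2:113628458-113629101, chr2:113642611-113643390 and chr2:113645433-113646110. The first stood at 31.0, 28.0, 25.8 and 25.3 times the background in the Sen libraries, at least 2.21-fold over the local Pro floor. The second stood at 35.5, 55.6, 32.7 and 31.6, with a bound of 1.31, and the last at 33.8, 52.8, 26.8 and 23.0, with a bound of 1.38. Sen replicate 2 was the highest library at the regions 48.9 and 51.4 kb away but not at the one 34.3 kb away.

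On the far side of IL1A, past its 3′ end, a region 5.3 kb beyond the gene (chr2:113525772-113526541) was opened at 47.5, 47.6, 40.9 and 32.7 times the background, with a bound of 1.58. A weaker one lay 45.6 kb beyond it (chr2:113485783-113486332), at 19.6, 24.0, 15.4 and 13.2, with a bound of 0.923. The remaining opened regions lay 99.7 and 122.2 kb upstream of IL1B and inside IL1RN. That at 99.7 kb (chr2:113693782-113694461) reached 15.8, 18.8, 14.7 and 13.2 in Sen and that at 122.2 kb (chr2:113716170-113716947) 23.1, 26.4, 25.8 and 23.4, at least 1.36-fold and 2.68-fold over the local Pro floor.

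At IL1RN, the antagonist gene, the opened region lay inside the gene as placed here and not at the 5′ end used. The region at chr2:113882188-113883353, with its summit 7.6 kb downstream of the IL1RN 5′ end, had 30.3, 32.8, 31.4 and 26.1 times the background in Sen and no peak in Pro, at least 2.84-fold over the local Pro floor. No Pro or Sen paired-end library listed a peak at that 5′ end, which is called the IL1RN start below. At IL1A, the agonist gene, a region 915 bases inside the 5′ end used (chr2:113541771-113542151) was listed in Sen replicates 1 and 2 at 10.7 and 14.0 times the background and in no other Sen or Pro library. RefSeq gives IL1A as 10569 bases long and the coordinates used here as 11480, so the sources place at least 1 end of the gene differently. The RefSeq IL1A starts were not placed in hg19 here, so this region may lie at a RefSeq start and not inside the gene. For IL1RN the lengths are 34655 and 16124 bases, and the later RefSeq starts lie 9.5 and 9.6 kb after the first. Distances from IL1RN here are from the 5′ end at 113875470 only, and where the other RefSeq starts and ends fall in hg19 was not analysed here, so a region given as upstream of IL1RN or inside it may lie otherwise in the RefSeq gene.

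Regions already open in Pro all lay on the IL1A and IL1B side of the long gap without peaks, and more of them were higher in Sen than lower. Among the 9 kept in all 6 libraries, pileup was higher in Sen without overlap between the groups at 5, where 22.4% of all kept regions were higher, and lower at 2, where 41.0% were lower. The median log2 ratio of Sen over Pro was 0.81 for the 9 and -0.17 for all 49449 kept regions. After scaling to an equal median over the regions held by all libraries, 5 stayed higher (27.0% of all) and 1 lower (36.4% of all). The widest gap was 19.0 kb upstream of IL1A (chr2:113561416-113562214), with 35.6 and 21.2 times the background in Pro and 75.1, 68.4, 75.2 and 70.1 in Sen, a log2 ratio of 1.35. The region 27.5 kb upstream of IL1A (chr2:113569252-113570822) had 25.8 and 23.8 in Pro and 63.0, 62.4, 64.1 and 51.4 in Sen, a log2 ratio of 1.28. Upstream of IL1B, the region at 43.5 kb (chr2:113637521-113638067) had 27.6 and 26.8 in Pro and between 57.7 and 69.6 in Sen. Its neighbour at 44.6 kb (chr2:113638542-113639387) had 44.8 and 48.5 in Pro and 94.7, 86.8, 87.7 and 80.7 in Sen, the highest Sen values of the cluster in the paired-end libraries. The fifth lay 36.7 kb beyond the IL1A 3′ end (chr2:113494361-113495128) with 16.1 and 12.6 in Pro and between 21.0 and 29.2 in Sen.

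The most accessible region of the cluster in Pro was lower in Sen. It lay 9.2 kb beyond the IL1A 3′ end (chr2:113521608-113522706) and had 110.2 and 112.2 times the background in Pro and 75.4, 75.2, 72.0 and 72.9 in Sen, a log2 ratio of -0.59. The other lower region, 47.1 kb beyond IL1A (chr2:113484149-113484719), had 64.9 and 55.6 in Pro and 45.1 to 49.5 in Sen, and its groups overlapped once libraries were scaled to an equal median over the regions held by all. Each such single difference has p = 0.133 in the exact permutation test, the smallest possible.

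The local background around these regions, that is the coverage of their wider surroundings in the caller's model, was also higher in Sen, and its part in the calls was not tested beyond the local bounds given above. At the 44.6 kb region it was 3.43 ± 0.00452 times the genome-wide background in Pro (SD, n = 2) and 10.5 ± 2.46 in Sen (SD, n = 4), a ratio of 3.07 (two-sided exact permutation p = 0.133). Across the 7 regions held by all 10 libraries, Sen was above Pro without overlap at 5 and below it at 0, where 30.9% of all such regions were above and 25.6% below.

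**Figure D3:**
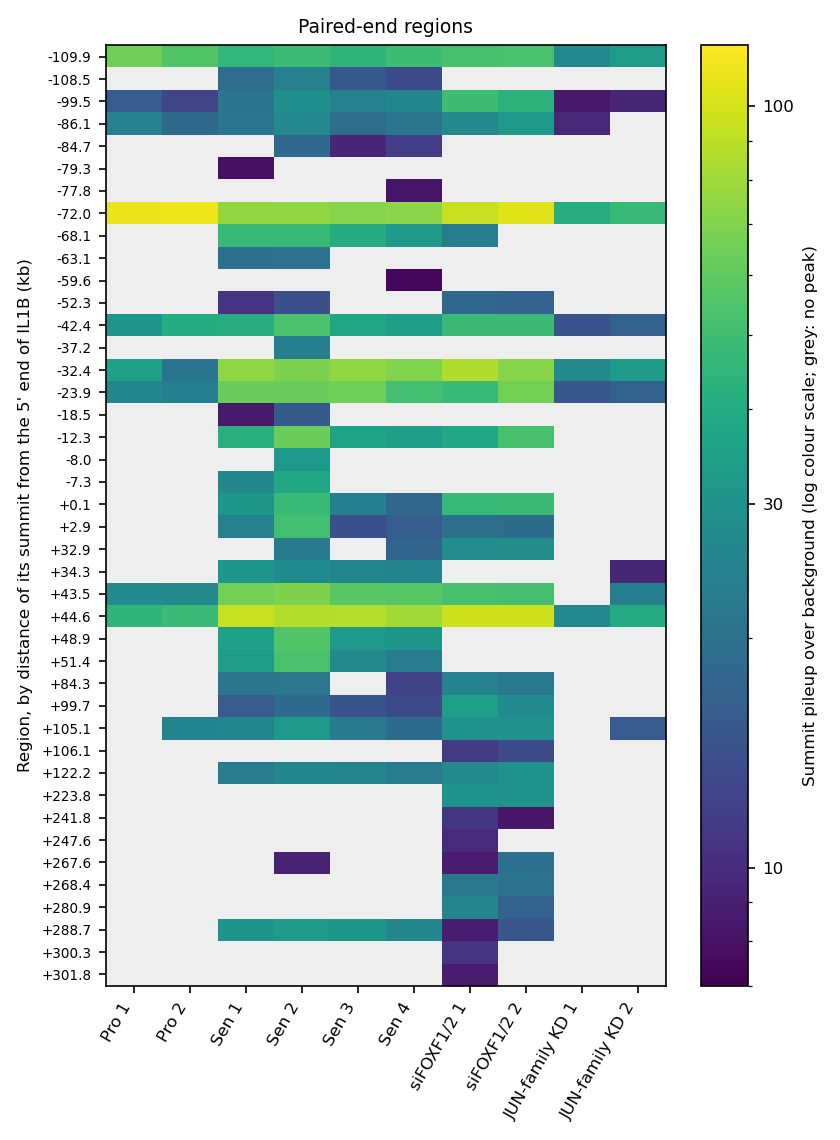
Each row is a paired-end region, labelled by the distance in kb of its summit from the 5′ end of IL1B, and each column a library; colour gives summit pileup over background on a log scale and grey means no listed peak. The 11 opened regions are the rows filled in all 4 Sen columns and empty in both Pro columns. Rows filled in siFOXF1/2 alone, some in 1 library only, lie toward the IL1RN side, among rows that are filled in Sen, too.

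Knockdown of FOXF1/2 in senescent cells left the number of peaks in the cluster within the Sen range, with fewer of them beyond IL1A and more of them on the IL1RN side. The interval held 30 and 26 peaks in the siFOXF1/2 libraries, 28 ± 2.83 (SD, n = 2) against 27.2 ± 4.11 (SD, n = 4) in Sen, and the covered length was 1.03 times that of Sen, each with p = 0.933 (two-sided exact permutation test, smallest possible 0.133). Left of the IL1A 3′ end the siFOXF1/2 lists held 5 and 4 peaks against 8, 8, 7 and 8 in Sen. Between IL1B and IL1RN they held 15 and 14 against 10, 12, 9 and 11. The groups did not overlap in either stretch, and the shift was not tested. How often other stretches of the genome set the same libraries apart is not given here.

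Of the 21 regions held by all Sen libraries, 4 had no peak in either siFOXF1/2 library (19.0%, against 8.10% of all such regions). With Sen replicates 1 and 2 alone, which share the peak-name style of siFOXF1/2, 7 of 26 were closed (26.9%, against 11.1% of all). No Pro library listed a peak at any of the 4, and JUN-family replicate 2 alone did at 1 of them. Of the 4, 3 were the regions 34.3, 48.9 and 51.4 kb upstream of IL1B described above, and the fourth was the weak region 45.6 kb beyond IL1A. The Sen pileup was at least 2.44-fold at 34.3 kb, 1.35-fold at 48.9 kb and 1.43-fold at 51.4 kb above the local siFOXF1/2 floor, and 4.44-fold, 5.53-fold and 4.03-fold above the genome-wide floor. At the fourth the local bound was 0.982. All 4 were also closed with lists of equal length, where 8.78% of all such regions were.

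The IL1B start kept its peak with FOXF1/2 knocked down. Its pileup was 48.2 and 48.8 times the background, against 17.9 to 48.0 in Sen, a log2 ratio of 0.68. The groups overlapped once scaled over the regions held by all libraries. Sen replicates 1 and 2, which share the peak-name style of siFOXF1/2, stood at 31.3 and 48.0 there, and replicates 3 and 4 at 23.9 and 17.9. The ratio over all 4 therefore mixes the styles. The region 2850 bases upstream had 19.9 and 19.2, inside the Sen range of 14.1 to 50.8 but below Sen replicates 1 and 2, at 24.5 and 50.8. The IL1A region 915 bases inside the 5′ end used was held by both siFOXF1/2 libraries at 18.4 and 17.1. Of the Sen libraries, it was held by replicates 1 and 2, which share the peak-name style of siFOXF1/2, at 10.7 and 14.0. Sen replicates 3 and 4, of the other style, lacked it.

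IL1RN had a peak at its start in the siFOXF1/2 libraries and a lower one inside the gene. At the start (chr2:113875128-113875468, summit 174 bases upstream) the siFOXF1/2 libraries had 25.6 and 17.1 times the background, at least 2.85-fold over the local Sen floor, where no Pro, Sen or JUN-family library listed a peak. The region inside IL1RN that opened in senescence had 8.8 and 15.1, against 26.1 to 32.8 in Sen, a log2 ratio of -1.34 that became -1.59 after scaling (p = 0.133, the smallest the two-sided exact permutation test allows).

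In all, 5 of the 25 regions held by both siFOXF1/2 libraries had no peak in any Sen library (20.0%, against 9.70% of all), and all 5 lay to the IL1RN side of those that closed, with summits from 113700437 to 113875296 against 113485889 to 113645709. The strongest lay 57.3 kb upstream of IL1RN (chr2:113817932-113818406), at 30.6 and 30.1 times the background and at least 4.29-fold over the local Sen floor. In the single-end layout Sen replicate 1 listed a peak there at 43.4. Others lay 12.7 kb upstream of IL1RN (chr2:113862631-113862975, at 21.8 and 20.2, bound 2.98) and 39.3 kb upstream of IL1RN (chr2:113835964-113836552, at 11.1 and 8.3, bound 1.38). The last lay 106.1 kb upstream of IL1B (chr2:113700219-113700508, at 11.5 and 13.5, bound 1.64). At 12.7 kb, too, 1 single-end Sen library (replicate 2) listed a peak, at 21.0. With lists of equal length 4 of the 5 were opened, without the one at 39.3 kb (9.18% of all such regions were opened). Against Sen replicates 1 and 2 alone, which share the peak-name style, 5 of 25 were opened (20.0%, against 12.3% of all). Against replicates 3 and 4 alone 7 of 25 were (28.0%, against 16.0% of all). Without siFOXF1/2 replicate 2 the count of opened regions was 8, for which the share of all regions is not given here.

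Among the 16 regions kept in all 6 libraries, 7 were higher in the siFOXF1/2 libraries (46.1% of all kept regions were) and 2 were lower (8.77% of all). The median log2 ratio was 0.18, and 0.27 over all kept regions, and after scaling -0.067 and 0.023, so that 10 of the 16 lay below 0 where 4 had before. After scaling on the regions held by all libraries 3 stayed higher (23.4% of all) and 2 lower (19.8% of all). The 3 were the region 99.7 kb upstream of IL1B, at 35.2 and 27.5 against 13.2 to 18.8 in Sen (log2 ratio 1.00), the region 36.7 kb beyond IL1A, at 49.7 and 44.1 against 21.0 to 29.2 (log2 ratio 0.90), and the most accessible region 9.2 kb beyond IL1A, at 94.5 and 105.4 against 72.0 to 75.4 (log2 ratio 0.44). Besides the region inside IL1RN, the one 43.5 kb upstream of IL1B was lower, at 52.4 and 51.9 against 57.7 to 69.6 (log2 ratio -0.26). Without siFOXF1/2 replicate 2, 4 regions were lower, again without a share of all regions beside it. The local background at the 7 regions held by all 10 libraries was higher than in Sen without overlap at 1 and lower at 1, where 45.7% and 9.60% of all such regions were.

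**Figure D4:**
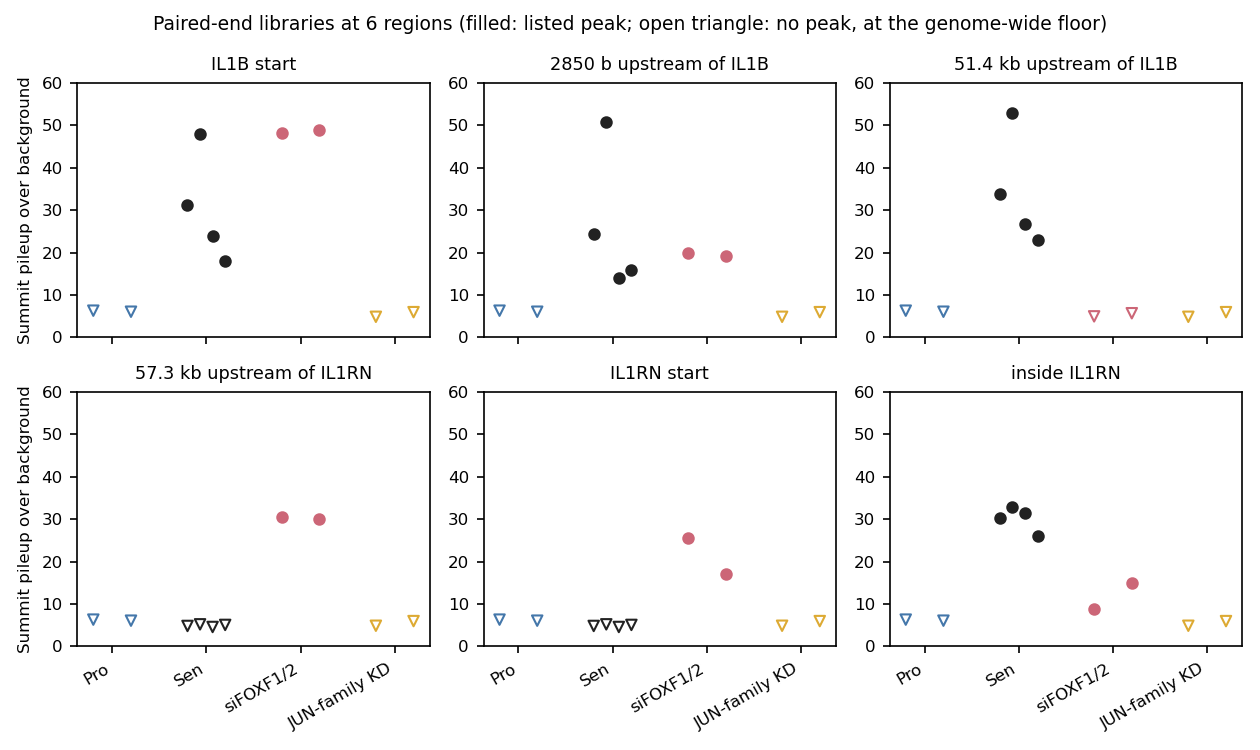
Summit pileup over background (y axis, times background) at 6 regions in the paired-end libraries. Filled points are listed peaks. Open triangles mark, for libraries without a peak, the genome-wide floor, the least that a peak had to reach. Floors are higher where the local background is raised. At the highest local background seen at the IL1B start, the floor was 21.8 for Pro and 21.4 for the JUN-family libraries. The 51.4 kb region has points in Sen only, the IL1RN start and the region 57.3 kb upstream of it in siFOXF1/2 only, and the region inside IL1RN stands at 8.8 and 15.1 in siFOXF1/2 against 26.1 to 32.8 in Sen.

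With JUN-family members knocked down, the senescent cells had peak numbers in the cluster like those of Pro, and neither the IL1B start nor the region inside IL1RN was listed. Lists held 9 and 11 peaks in the interval, a mean of 10 ± 1.41 (SD, n = 2), which was 0.367 of the Sen mean. These peaks covered 3065 and 2946 bases, 0.214 of the Sen length. Per 10000 listed peaks the ratio was 0.607, with p = 0.133 for each (two-sided exact permutation test, the smallest possible). Of the 21 regions held by all Sen libraries 10 were closed (47.6%), against 31.6% of all such regions. With Sen replicates 3 and 4 alone, which share the peak-name style, 11 of 22 were closed (50.0%, against 34.8% of all). With lists cut to the 60156 strongest peaks 5 of 16 were (31.2%, against 15.2% of all). None of the 7 regions held by both knockdown libraries was new, against 5.91% of all such regions.

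At the agonist gene, the IL1B start and the region 2850 bases upstream of it had no peak in either JUN-family library, but the local bounds were 0.838 and 0.857 and neither was among the 5 closed with lists of equal length. Those 5 were the region 5.3 kb beyond IL1A (local bound 1.65), the region between IL1A and IL1B that lies 12.3 kb from the IL1B 5′ end (1.53), the regions 51.4 and 122.2 kb upstream of IL1B (1.44 and 2.90) and the region inside IL1RN (2.92). Scaling on the regions held by all libraries, which takes the lower signal of the knockdown libraries into account, left bounds above 1 at 2 of them, 1.69 at 122.2 kb and 1.84 inside IL1RN. The other closed regions were those 48.9 and 99.7 kb upstream of IL1B and 45.6 kb beyond IL1A, with local bounds of 1.35, 1.48 and 0.987. At 34.3 kb upstream of IL1B JUN-family replicate 2 listed a peak at 9.4 times the background, against 25.3 to 31.0 in Sen, and replicate 1 listed none.

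All 7 regions kept in the knockdown had lower pileup without overlap, where 83.8% of all kept regions were lower and 2.05% higher. The median log2 ratio was -1.39 for the 7 and -0.79 for all. After scaling on the regions held by all libraries, 5 of the 7 were lower (20.8% of all) and 2 higher (30.5% of all), with medians of -0.54 and 0.07. The lowest ratio was 27.5 kb upstream of IL1A, with 14.9 and 16.9 against 51.4 to 64.1 in Sen, a log2 ratio of -1.92 (-1.06 after scaling). The region 44.6 kb upstream of IL1B had 26.6 and 40.3 against 80.7 to 94.7 (-1.39, and -0.54 after scaling). The region 19.0 kb upstream of IL1A had 26.6 and 32.8 against 68.4 to 75.2 (-1.28, and -0.43 after scaling). The most accessible region 9.2 kb beyond IL1A had 40.9 and 47.7, a log2 ratio of -0.74 that turned to 0.12 after scaling, and the region 47.1 kb beyond IL1A turned from -0.66 to 0.19. The local background was lower than in Sen without overlap at 7 of 7 regions, as it was at 81.1% of all regions held by the 10 libraries, with 3.86% higher. At 44.6 kb it was 3.41 ± 0.609 times the genome-wide background (SD, n = 2), 0.323 times Sen (two-sided exact permutation p = 0.133).

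The regions held by both JUN-family libraries were also listed in Pro, whereas the region at 34.3 kb, listed in replicate 2 alone, was not. All 7 regions held by both JUN-family libraries were among the 9 held by both Pro libraries (100% of the first and 77.8% of the second), and these groups share no library. Over the whole genome the same shares were 81.0% and 72.9%. The other 2 were the region 23.3 kb beyond the IL1A 3′ end (chr2:113507331-113508302), listed at 9.7 in replicate 1, and the region 43.5 kb upstream of IL1B, listed at 23.9 in replicate 2.

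The single-end libraries addressed the co-activators p300 and CBP and the NF-kB subunit p65. With p300/CBP knockdown the interval held 16 and 12 peaks against 16 and 18 in Sen, 14 ± 2.83 and 17 ± 1.41 (SD, n = 2 each), a ratio of 0.824 (two-sided exact permutation p = 0.667, with 0.333 the smallest that 2 against 2 allow). Of the 13 regions held by both Sen libraries 3 were closed (23.1%, against 17.4% of all such regions). They were the region about 2.9 kb upstream of the IL1B start (chr2:113596980-113597485), at 104.1 and 56.8 times the background in Sen, the region 43.4 kb upstream (chr2:113637703-113637878), at 82.4 and 54.7, and the region 51.4 kb upstream (chr2:113645608-113645806), at 39.0 and 35.8. The Sen pileup was above the floor of the knockdown libraries by small bounds, 1.15, 1.03 and 1.05 against the local floor and 2.78, 2.68 and 1.75 against the genome-wide floor.

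At the starts of IL1B and IL1RN the p300/CBP libraries listed peaks that single-end Sen did not. At the IL1B start (chr2:113594467-113594620) they had 49.2 and 51.1 times the background and neither single-end Sen library listed a peak, although all 4 paired-end Sen libraries did. At the IL1RN start (chr2:113875212-113875427) they had 30.3 and 30.7. These were 2 of the 10 regions held by both knockdown libraries (20.0%, against 13.1% of all), with bounds of 1.42 and 1.16 against the local and 2.27 and 1.40 against the genome-wide Sen floor. With lists cut to the 46557 strongest peaks, 2 of 10 regions were closed (17.3% of all) and 2 of 8 opened (15.8% of all). The regions 2.9 and 43.4 kb upstream of IL1B and the IL1B start kept their calls, and those of the region 51.4 kb upstream of IL1B and of the IL1RN start were lost. The second opened region was then the one between IL1A and IL1B, 12.4 kb downstream of the IL1B 5′ end. The IL1A region 915 bases inside the 5′ end used was listed in p300/CBP replicate 1 alone among the single-end libraries, at 49.2. Of the 7 kept regions 2 were higher without overlap (16.1% of all) and 0 lower (5.52% of all), and after scaling 2 were higher (27.5% of all) and 1 lower (17.5% of all). Leaving out 1 library moved these counts: 5 regions were closed without Sen replicate 1, without Sen replicate 2 or without sip300/CBP replicate 1, 4 were opened without sip300/CBP replicate 2, and 7 kept regions were higher without Sen replicate 1. The shares of all regions under these settings are not given here, so the counts show only how far the calls moved.

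With p65 knockdown the lists held 10 and 4 peaks in the interval, a ratio of 0.412 to Sen, or of 0.806 when counted per 10000 listed peaks. A two-sided exact permutation test gave p = 0.333 for each, as low as 2 against 2 can give. Of the 13 regions held by both Sen libraries 3 were closed (23.1%), against 29.6% of all. They were the regions 2.9 and 51.4 kb upstream of IL1B, and a region 26.8 kb upstream of IL1A (chr2:113569489-113569841), at 86.7 and 48.4 in Sen. Their local bounds were 0.923, 0.871 and 0.943, and after scaling on the regions held by all libraries 1.17, 0.812 and 1.20. None was above 1 on both scales. None of the 3 regions held by both p65 libraries was new (1.53% of all were), and none of the 3 kept regions had groups apart (8.84% of all were lower and 10.6% higher). After scaling 1 was lower (19.8% of all) and 1 higher (19.4% of all). The region inside IL1RN was held in both p65 libraries at 44.6 and 51.3, against 52.0 and 29.5 in Sen. Without the short list of sip65 replicate 2 the closed count was 4, the opened count 1 and the lower count 5, and without replicate 1 the closed count was 9. Without Sen replicate 1 the closed count was 8 and without Sen replicate 2 it was 6. For these counts the shares of all regions are not given here. List length and a change of the cluster can therefore not be told apart in them. With lists cut to 17880 peaks the closed count was 1 of 2 (16.6% of all). That 1 region lay 84.3 kb upstream of IL1B (chr2:113678553-113678750), and the calls of all 3 regions named above were lost.

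**Figure D5:**
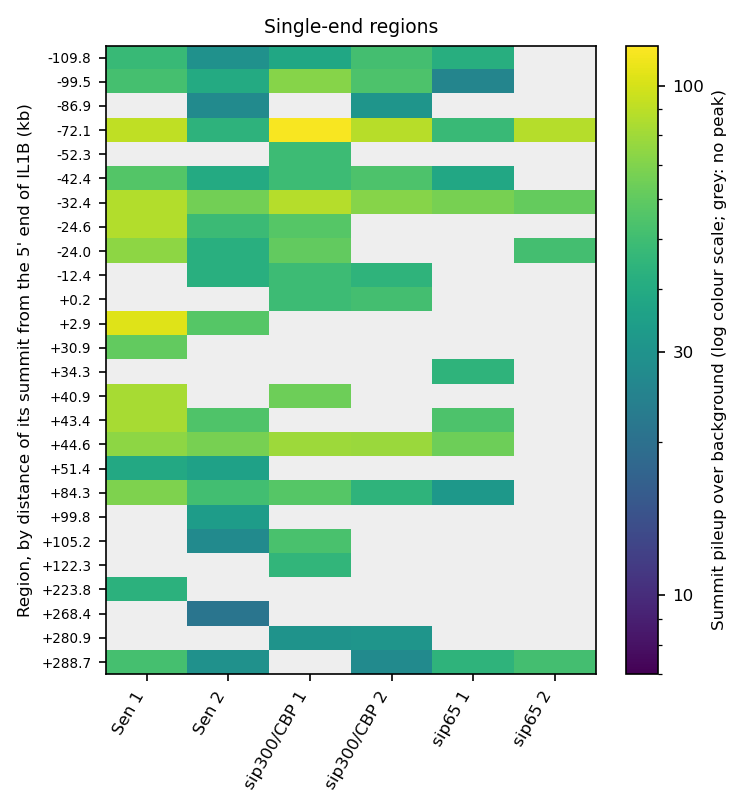
Each row is a single-end region, labelled by the distance in kb of its summit from the 5′ end of IL1B, and each column a library; colour gives summit pileup over background on a log scale and grey means no listed peak. The row 2.9 kb upstream of IL1B is filled in Sen only, and the IL1B start and IL1RN start rows in sip300/CBP only.

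The region 51.4 kb upstream of IL1B was listed in all 6 Sen libraries, at 23.0 to 52.8 times the background in the paired-end and 39.0 and 35.8 in the single-end set, and in none of the 10 other libraries, Pro and the 4 knockdowns alike. The 4 knockdown comparisons share Sen libraries within a layout, so these absences are not independent of each other, and for p300/CBP and p65 the region was no longer called closed with lists of equal length. After scaling on the regions held by all libraries, the bound was 1.54 for Pro and 1.81 for siFOXF1/2. It was 0.872 for the JUN-family, 0.944 for the p300/CBP and 0.812 for the p65 knockdown, so on that scale a difference was not resolved there. The region inside IL1RN, also opened in Sen, was missing in Pro and in the JUN-family knockdown, weak in siFOXF1/2, held by 1 of the p300/CBP libraries at 27.2 and held by both p65 libraries.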

How the data were processed

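Peak lists of 16 ATAC-seq libraries were used. Reads were single (75 bases) or paired (35 bases), per the labels' protocols. The tools MACS2 2.1.1, Bowtie2 2.3.4.1, SAMtools 1.9 and deepTools 3.1.1 and the build hg19 appear, without roles, per the submitters' processing notes. Whether reads were shifted for the transposase and how peaks were called is not given in the sources used here. Single-end peak names carry a duplicate-removal tag. Peaks were called per library. Each deposited list gives, as the authors' own values, a fold enrichment ratio, the −log10 of the p-value and q-value, a score of 10 times −log10 q (not used) and the summit position. Every listed q was below 1e-04.

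Pileup and local background were recovered from the deposited fold, (pileup + 1) / (background + 1), and the Poisson p-value. All pileups came out whole (100% per library, within 0.002 in −log10 p, widened for large values). The 1st percentile of local background served as genome-wide background, and the lowest pileup whose p would be listed as floor. A fold bound divides the lowest value of the group with peaks by the highest floor of the group without, at the highest local background seen at the region. That background comes from a library with a peak there, so a local floor does not use the local background of the group without.

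Peaks overlapping by at least 1 base were merged per layout. Closed regions had a peak in all reference libraries (Sen, or Pro for Sen against Pro) and in none of the other group, opened regions the opposite, and kept regions a peak in all. Shares were set beside those of all regions. Values per library were tested by exact permutation, two-sided, which cannot go below 0.133 (2 against 4) or 0.333 (2 against 2). Described in full were regions within 2 kb of the 5′ ends of IL1A, IL1B and IL1RN and opened or closed regions, for more than 8 those with the highest lowest −log10 q; the remaining 3 and 2 were named after their values were seen. Python 3.11.15, numpy 2.4.6, pandas 2.3.3 and scipy 1.17.1 were used, and the recovery and calls were tested on simulated data. The interval, genes and rules were chosen with earlier results of these data known. Alternatives were equal list lengths, a −log10 q minimum of 5, 50% cover, 500 bp windows on summits, a wider interval, other scalings, subsets of the Sen libraries and leaving out each library. Fibroblast and leukocyte marker promoters, other IL-1 pathway genes and the hg19 sequence of the peaks were not analysed here.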

Additional observations from a re-analysis of the deposited data

Results flagged for a closer look

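At 23 groups of 4 Sen values (peak number, covered length and pileup at the 21 regions held by all 4 paired-end Sen libraries), 2 had a library set apart from the other 3, where chance sets apart about 1 in 20 groups. At the region 48.9 kb upstream of IL1B (chr2:113642611-113643390), Sen replicate 2 stood at 55.6 times the background, against 31.6, 32.7 and 35.5 in the others. At the region 27.5 kb upstream of IL1A (chr2:113569252-113570822), Sen replicate 4 stood at 51.4, against 62.4, 63.0 and 64.1. At the latter, replicate 4 was above every Pro and JUN-family value, as the other Sen libraries were; at the former no Pro or JUN-family library listed a peak.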

How the results depend on the processing

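Sen against Pro and JUN-family knockdown against Sen kept their direction in peak number and covered length under every alternative run. With lists of equal length, 6 regions were opened in Sen and 5 closed in the JUN-family knockdown, and the p65 knockdown closed 1. The siFOXF1/2 peak number ratio turned to 0.991 with lists of equal length and to 0.949 with Sen replicates 1 and 2 only, which is also its replicate block value (pairs of the same number); the covered length ratio in the block was 0.880. The labels do not say that numbers pair libraries, replicate 1 deviations correlated between groups at -0.00207 to 0.123, and the block turned no other direction. With Sen replicates 1 and 2 only, siFOXF1/2 closed 7 regions, and with replicates 3 and 4 only 12 kept regions were higher (share of all kept regions not given here). Scaling on kept regions gave 1 lower in Sen against Pro, 3 higher in the FOXF1/2, 2 higher in the JUN-family and 1 lower in the p300/CBP knockdown. In the p65 knockdown it gave 1 lower and 1 higher (1 lower also with the 5th percentile as background). With 50% cover p300/CBP knockdown closed 5 (share of all regions not given here). Scaling turned the sign of 10 log2 ratios of kept regions. Of these, 5 had overlapping groups before scaling (3 in siFOXF1/2, 1 in p300/CBP and 1 in p65 knockdown). The other 5 turned in siFOXF1/2 to -0.10 at 47.1 kb beyond IL1A, -0.091 at 44.6 kb and -0.043 at 122.2 kb upstream of IL1B, and in the JUN-family knockdown to 0.19 at 47.1 kb and 0.12 at 9.2 kb beyond IL1A. The cause was not tested.

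Leaving out each library in turn gave these ranges, without the shares of all regions beside the counts. For siFOXF1/2: peak number ratio 0.954 to 1.10, covered length ratio 0.947 to 1.11, opened 5 to 8, kept and lower 2 to 4. For p300/CBP: closed 4 to 5, opened 2 to 4, lower 0 to 2, higher 2 to 7. For p65: closed 4 to 9, opened 0 to 1, lower 0 to 5, higher 0 to 2. Of 276 alternative values, 236 kept direction and size. Depth limits the single-end lists to peaks of at least 14.7 to 25.7 times the background.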
